A study of Rattus norvegicus with 48 samples.

Results

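The 8 genes described here are Rxfp1, Tgfb2, Sh3bp4, Anxa6, Eif4e3, Prcp, E2f5 and Drc12, out of 27342 probe sets on the arrays, 15097 of which carry 1 gene symbol. They were selected on their signal in hippocampal area CA1, by large differences that involve stressed rats of the vinclozolin lineage, and each is read from the probe set with its symbol that has the highest mean over all arrays (E2f5 has 2 probe sets, every other gene 1). The CA1 differences therefore made the choice and are given as a description without a test, while the other 3 areas were measured on arrays that the choice did not use.

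RNA was measured on 1-colour whole-transcript arrays in basolateral amygdala (BLA), primary and secondary motor cortex (CRTX), CA1 and CA3 of male Sprague-Dawley rats at 120 days of age. All rats belong to the F3 generation. The vinclozolin lineage (Vin) descends from F0 mothers injected during pregnancy with vinclozolin, an anti-androgenic fungicide, at 100 mg/kg/day from embryonic day 8 to 14. Forebears of the control lineage (Con) received the DMSO vehicle, so no rat measured here was itself dosed. Rats were restrained for 6 hours a day on 21 days of adolescence, postnatal days 23 to 43 (St), or were not restrained (NSt), which with the lineages makes 4 groups, written NSt-Con or St-Con and NSt-Vin or St-Vin. A Con and a Vin rat shared a cage as a dyad, and each array holds RNA from 2 mm punches of 4 rats, pooled, so the spread between individual rats is not seen. The same 12 pools supplied all 4 areas.

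Each group in an area has 3 arrays, except CRTX NSt-Vin and CA1 St-Con with 2. There, 1 deposited array equals the mean of its partners within 0.0051 on all probe sets and was left out, which leaves 46 of 48 arrays. In CA1 the St-Vin arrays were all scanned on day 4 and every other array used on day 3, so a CA1 difference that involves St-Vin cannot be told apart from one of scan day. In CRTX, NSt-Con was scanned on day 1, both stressed groups on day 2, and NSt-Vin on both days. Single pyramidal cell markers overlapped between the CA1 and CA3 punches. Wfs1, a CA1 marker, read 8.39 to 10.62 in CA1 and 9.58 to 10.87 in CA3. Grik4, a CA3 marker, read 7.59 to 9.64 in CA1 and 8.80 to 9.46 in CA3. Its overlap came from CA1 replicate 3 of NSt-Con (9.64) and NSt-Vin (9.45). The mean of 16 CA3 and CA2 genes had group means of 7.986 to 8.349 in CA1 and 8.521 to 8.597 in CA3. That of 8 CA1 genes was also higher in CA3, at 8.955 to 9.161 against 8.462 to 8.751 in CA1. In punches of bulk tissue, fewer cells of a type and less RNA per cell cannot be told apart. All levels are log2 signals, so a difference of 1 is a doubling.

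The members have different roles. Rxfp1 is the receptor for the peptide hormone relaxin and signals mainly through cyclic AMP. Tgfb2 is a secreted growth factor of the TGF-beta family, which acts through serine/threonine kinase receptors and Smad proteins. Prcp is a lysosomal prolylcarboxypeptidase that trims peptides such as angiotensin II. Sh3bp4 is an adaptor involved in endocytosis, and Anxa6 is a calcium-dependent membrane-binding annexin. Eif4e3 is a cap-binding protein related to the translation factor Eif4e, E2f5 is a transcription factor that binds pocket proteins, and Drc12 is a part of the dynein regulatory complex of motile cilia. In the brain, motile cilia are carried by ependymal cells, which line the ventricles.

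Sequences upstream of the start site were at hand in RefSeq (GRCr8) for 4 of the 8 members, Tgfb2, Sh3bp4, Prcp and Drc12. The 250 bases of Sh3bp4 and Drc12 are shown because they hold the matches described next; capitals mark the GC box CCGCCC in Sh3bp4 and, in Drc12, the X-box, a motif bound by the RFX factors of ciliated cells. Each lies on the + strand, directly upstream of the annotated start, at chr9:97107627-97107876 and chr8:53474409-53474658.
Sh3bp4: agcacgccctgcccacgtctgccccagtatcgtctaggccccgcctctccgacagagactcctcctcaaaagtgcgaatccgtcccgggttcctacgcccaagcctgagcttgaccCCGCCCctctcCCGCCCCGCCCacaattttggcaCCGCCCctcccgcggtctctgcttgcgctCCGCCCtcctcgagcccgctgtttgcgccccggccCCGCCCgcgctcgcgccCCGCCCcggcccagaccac
Drc12: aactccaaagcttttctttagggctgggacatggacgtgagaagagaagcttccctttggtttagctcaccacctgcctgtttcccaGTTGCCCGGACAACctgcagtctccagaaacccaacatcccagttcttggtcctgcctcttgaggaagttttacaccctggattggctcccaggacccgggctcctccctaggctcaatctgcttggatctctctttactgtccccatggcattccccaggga
The Sh3bp4 sequence is 72.0% G and C and holds 7 GC boxes, 2 of them overlapping, that begin between 134 and 19 bases before the start. GC boxes occur in 30.5% of the 33469 RefSeq sequences of this length, and the Prcp sequence holds 2. The X-box of Drc12 begins 163 bases before the start, and 0.335% of the sequences hold one. AGAACA, a half-site of the glucocorticoid and androgen receptors held by 17.5% of them, and the cyclic AMP response element TGACGTCA, held by 1.59%, were not found in any of the 4. Both strands were searched with overlaps allowed, and a match or its absence describes these letters only.

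In CA1, 4 members had their highest CA1 signal in St-Vin (Rxfp1, Tgfb2, Sh3bp4 and Prcp). Anxa6, Eif4e3 and Drc12 had their lowest there. E2f5 hardly varied on the probe set described, while its second set, given below, differed more. The name given to the set, genes shifting with stress, is thus not met by every member: in Vin, St-Vin differed from NSt-Vin by 0.59 to 1.01 in size for 6 members, but by 0.18 for Prcp and 0.09 for E2f5. These 6 are also the ones past an adjusted p of 0.05, beside 138 of all 27342 probe sets (0.505%; 0.0951% higher and 0.41% lower). Because this contrast chose the members, nothing is read from that count. It stayed 6 without NSt-Con replicate 3 or St-Vin replicate 3 and was 0 without any of the other 9 arrays, 1 at a time. Every difference kept its sign, which was fixed in advance because no member's St-Vin arrays overlapped its NSt-Vin arrays.

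**Figure D1:**
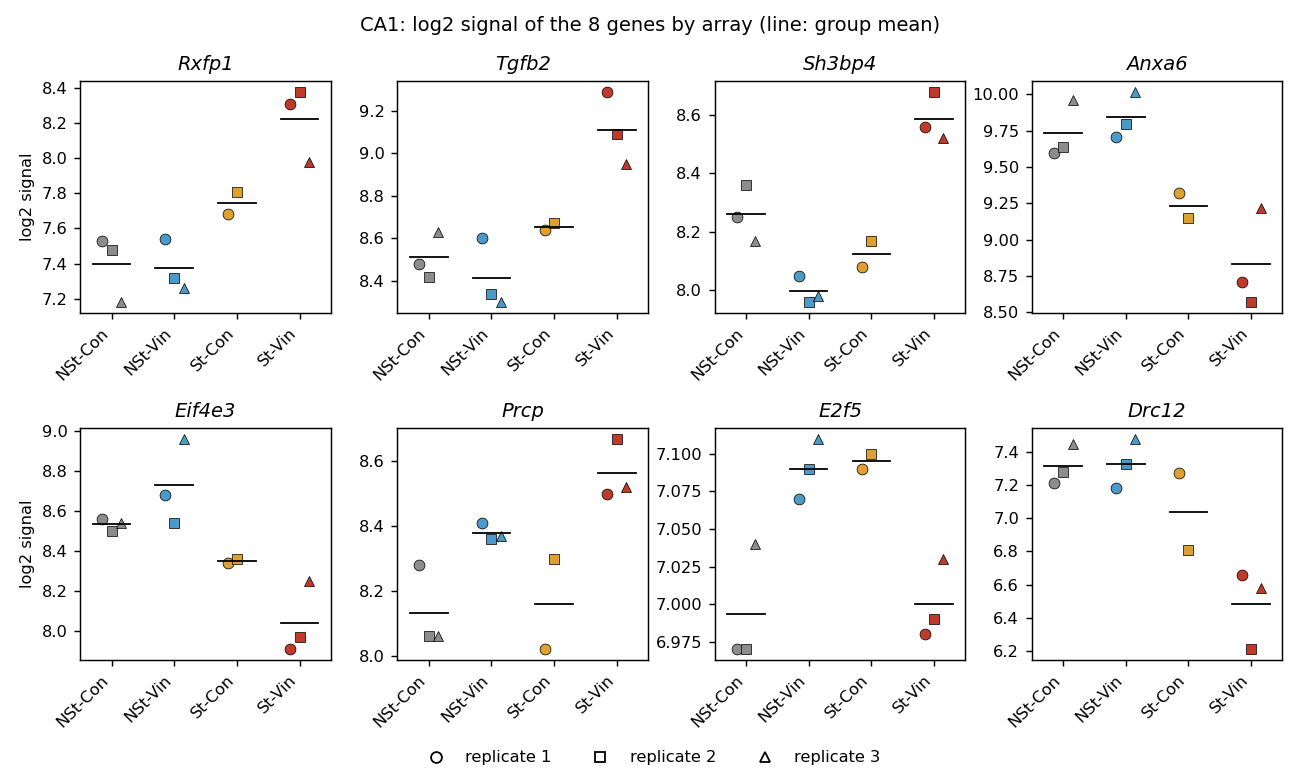
Log2 signal (vertical axis, a separate scale for each gene) of the 8 genes in every CA1 array used, by group (horizontal axis); symbols give the replicate and the line the group mean. Rxfp1, Tgfb2, Sh3bp4 and Prcp lie above all other groups in St-Vin, and Eif4e3 and Drc12 below them.

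Rxfp1, the relaxin receptor, read 7.53, 7.48 and 7.18 in CA1 of NSt-Con, 7.54, 7.32 and 7.26 in NSt-Vin, 7.68 and 7.81 in St-Con, and 8.31, 8.38 and 7.98 in St-Vin. The St-Vin arrays were the highest and overlapped no other group, St-Con came next, and the groups without stress overlapped each other. St-Vin exceeded NSt-Vin by 0.85 ± 0.124 (SE, n = 3 and 3), or 1.8-fold, and St-Con exceeded NSt-Con by 0.35 ± 0.138 (n = 2 and 3). Between the stressed lineages the difference was 0.48 ± 0.138, and between the lineages without stress -0.02 ± 0.124.

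Tgfb2, the growth factor, read 8.48, 8.42 and 8.63 in NSt-Con, 8.60, 8.34 and 8.30 in NSt-Vin, 8.64 and 8.67 in St-Con, and 9.29, 9.09 and 8.95 in St-Vin. The St-Vin arrays lay above every other CA1 array, and the St-Con arrays lay between them and the arrays without stress. The difference of St-Vin from NSt-Vin was 0.70 ± 0.102, or 1.62-fold, against 0.15 ± 0.114 for stress in Con. St-Vin lay 0.46 ± 0.114 above St-Con, while the lineages without stress overlapped, at a difference of -0.10 ± 0.102.

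Prcp, the angiotensin-processing peptidase, followed lineage more than stress in CA1. It read 8.28, 8.06 and 8.06 in NSt-Con, 8.41, 8.36 and 8.37 in NSt-Vin, 8.02 and 8.30 in St-Con, and 8.50, 8.67 and 8.52 in St-Vin. Every Vin array lay above every Con array, a separation whose share over all probe sets was not counted. NSt-Vin exceeded NSt-Con by 0.25 ± 0.0866, St-Vin exceeded St-Con by 0.40 ± 0.0968, and stress made a difference of 0.18 ± 0.0866 in Vin and 0.03 ± 0.0968 in Con.

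Sh3bp4, the endocytic adaptor, had opposite lineage differences with and without stress. Its CA1 signals were 8.25, 8.36 and 8.17 in NSt-Con, 8.05, 7.96 and 7.98 in NSt-Vin, 8.08 and 8.17 in St-Con, and 8.56, 8.68 and 8.52 in St-Vin. NSt-Vin was the lowest group and overlapped no NSt-Con array, and St-Vin was the highest and overlapped none of the others. The lineage difference was -0.26 ± 0.0662 without stress and 0.46 ± 0.0741 with stress, which leaves 0.73 ± 0.0994 between them, the largest such interaction among the 8 in size. Stress differed by 0.59 ± 0.0662 in Vin (1.51-fold) and by -0.14 ± 0.0741 in Con.

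Anxa6, the annexin, gave the largest CA1 difference of the set. It read 9.60, 9.64 and 9.96 in NSt-Con, 9.71, 9.80 and 10.02 in NSt-Vin, 9.32 and 9.15 in St-Con, and 8.71, 8.57 and 9.22 in St-Vin. All stressed arrays of both lineages lay below all arrays without stress, and St-Vin replicate 3 lay within the range of St-Con. St-Vin was lower than NSt-Vin by a log2 difference of -1.01 ± 0.16, or 2.01-fold, and St-Con lower than NSt-Con by -0.50 ± 0.178.

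Eif4e3, the cap-binding protein, read 8.56, 8.50 and 8.54 in NSt-Con, 8.68, 8.54 and 8.96 in NSt-Vin, 8.34 and 8.36 in St-Con, and 7.91, 7.97 and 8.25 in St-Vin. The order was the same as for Anxa6, with both stressed groups below both others and St-Vin lowest, here without overlap. Its stress difference was -0.68 ± 0.109 in Vin (1.61-fold lower) and -0.18 ± 0.122 in Con.

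E2f5, the pocket-protein-binding factor, spanned only 6.97 to 7.11 over all CA1 arrays. It read 6.97, 6.97 and 7.04 in NSt-Con, 7.07, 7.09 and 7.11 in NSt-Vin, 7.09 and 7.10 in St-Con, and 6.98, 6.99 and 7.03 in St-Vin. NSt-Vin and St-Con were both a little above NSt-Con and St-Vin, without overlap, by 0.10 ± 0.0468 and 0.10 ± 0.0523 over NSt-Con. The second E2f5 probe set, with a mean of 6.039 against 6.956, gave other values: St-Vin minus NSt-Vin was -0.47 there and -0.09 on the set described, so the CA1 pattern of E2f5 depends on the probe set. The sets correlated at r = 0.761 over the 46 arrays, which share the areas' differences.

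Drc12, the cilium gene, read 7.21, 7.28 and 7.45 in NSt-Con, 7.18, 7.33 and 7.48 in NSt-Vin, 7.27 and 6.81 in St-Con, and 6.66, 6.21 and 6.58 in St-Vin. Every St-Vin array was below every other CA1 array, and the St-Con arrays were far apart. The stress difference was -0.85 ± 0.143 in Vin (1.8-fold lower) and -0.27 ± 0.16 in Con, and the groups without stress differed by 0.02 ± 0.143.

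St-Vin arrays were separate from NSt-Vin arrays in CA1 for 8 of 8 members, where 25.2% of all probe sets were. They were separate from St-Con for 7 members (22.9% of all probe sets) and from every other group for 6 (7.67%). The last share was higher than in the other areas. In BLA, CRTX and CA3, St-Vin stood apart from every other group for 0.241%, 1.28% and 1.99% of the probe sets. In CA3, 18% of the probe sets were apart from NSt-Vin. The share for St-Con in CA1 rests on only 2 arrays of that group, which are more easily separate than 3. Shares were not counted for the other CA1 separations above, such as Prcp by lineage, Anxa6 and Eif4e3 by stress, and the E2f5 groups. Nothing is read from those. Within St-Vin, replicate 3 was the array nearest to NSt-Vin for 6 of the 8 members and replicate 1 for Prcp and Drc12.

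The cage-mate pairs, each a Vin and a Con pool of the same dyad group, were compared within each pair. In the 2 stressed pairs the CA1 difference of Vin from Con was 0.63 and 0.57 for Rxfp1, 0.65 and 0.42 for Tgfb2, 0.48 and 0.51 for Sh3bp4 and 0.48 and 0.37 for Prcp. It was -0.61 and -0.58 for Anxa6, -0.43 and -0.39 for Eif4e3, -0.11 and -0.11 for E2f5 and -0.61 and -0.60 for Drc12. In the 3 pairs without stress, Drc12 differed by -0.03, 0.05 and 0.03, Rxfp1 by 0.01, -0.16 and 0.08, and Tgfb2 by 0.12, -0.08 and -0.33, with mixed signs. The other 5 members had 1 sign in these 3 pairs. Prcp differed by 0.13, 0.30 and 0.31 and Sh3bp4 by -0.20, -0.40 and -0.19, the latter opposite to the stressed pairs. Anxa6 at 0.11, 0.16 and 0.06, Eif4e3 at 0.12, 0.04 and 0.42 and E2f5 at 0.10, 0.12 and 0.07 were also opposite to the stressed pairs. The stressed pairs also hold arrays of different scan days. With the pairs as a block in the fit, 5 members passed for lineage with stress (1.27% of all probe sets) and 4 for the interaction (0.494%), against 0 for both without the block (0% of all probe sets); these comparisons took part in the choice, and nothing is read from the counts.

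**Figure D2:**
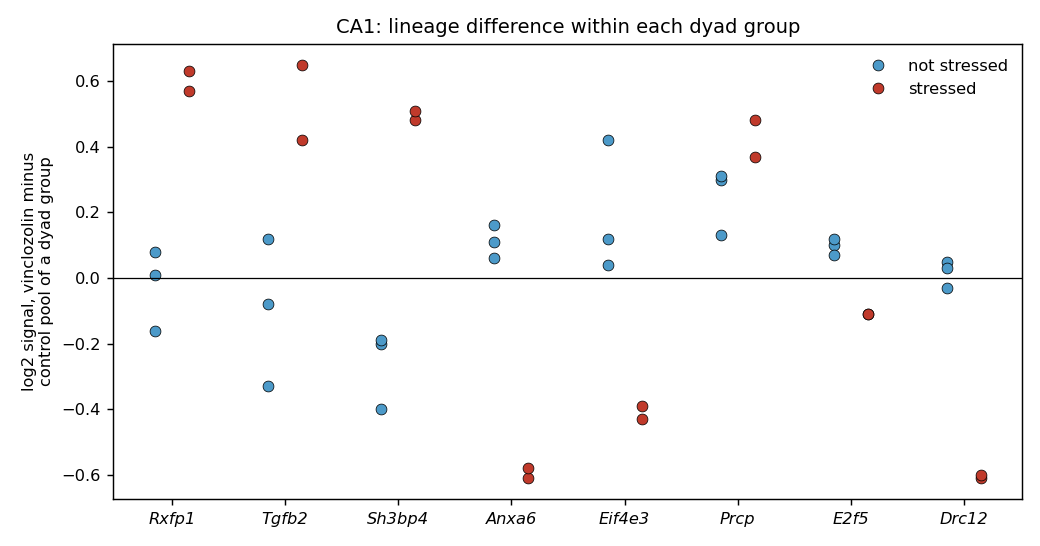
Log2 difference of the vinclozolin from the control pool (vertical axis) in each dyad group in CA1, for the 8 genes (horizontal axis), with 3 pairs that were not stressed in blue and 2 stressed pairs in red. Stressed pairs lie above 0 for Rxfp1, Tgfb2, Sh3bp4 and Prcp and below 0 for Anxa6, Eif4e3, E2f5 and Drc12.

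Outside CA1 the same genes gave small differences. Over BLA, CRTX and CA3, 120 member differences were tested (8 genes, 5 comparisons, 3 areas) with limma, and 0 passed an adjusted p of 0.05; 8 had an unadjusted p below it. Over all probe sets the share below that unadjusted p was on average 5.57%. The largest difference in size was 0.457, for Sh3bp4 in CRTX. For St-Vin against NSt-Vin, the comparison with the large CA1 values, no probe set at all passed in these 3 areas (0% in each), and the member differences had the CA1 sign for 5 of 8 members in BLA, 4 in CRTX and 4 in CA3. Over all probe sets 48.2%, 49.2% and 48.6% shared the CA1 sign; the areas come from the same pools.

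**Figure D3:**
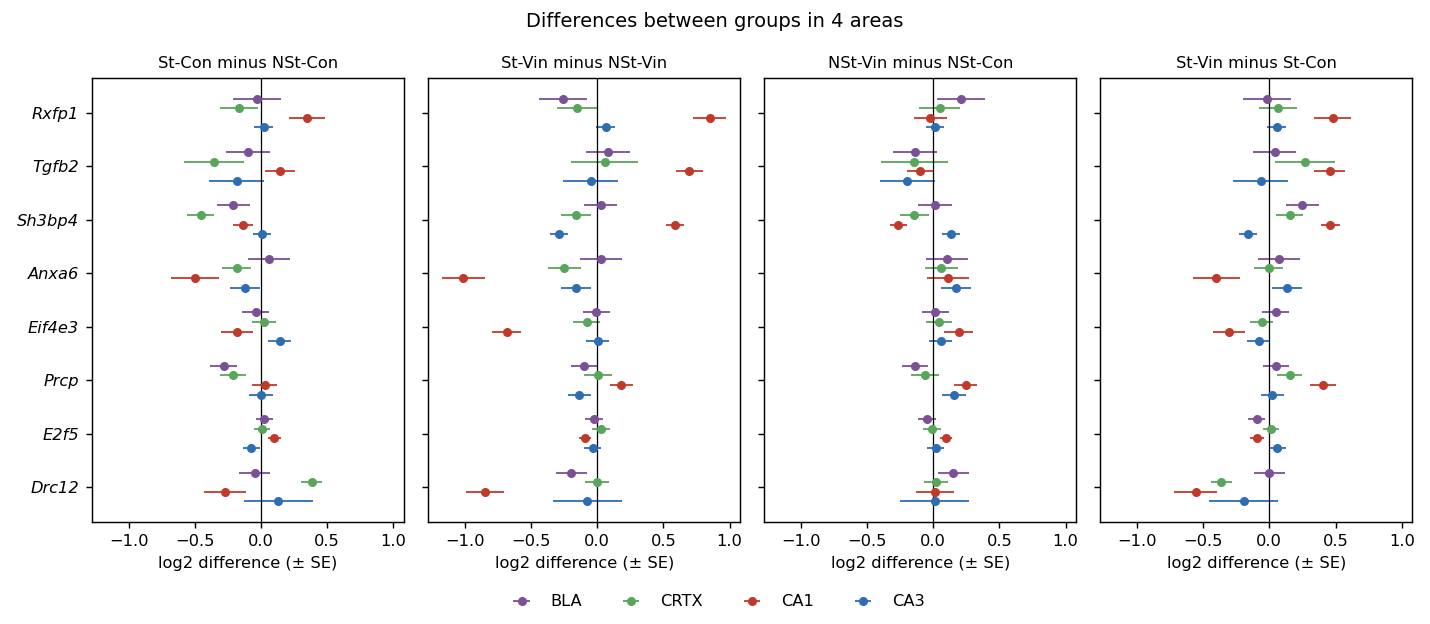
Log2 differences with their SE (horizontal axis) for the 8 genes (vertical axis) between groups, in 4 panels, with colours for the areas. In the panel of St-Vin minus NSt-Vin the CA1 points reach 0.85 and -1.01, while no point of another area exceeds 0.287 in size.

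In BLA the arrays of every group overlapped for every member when St-Vin was set against the others. Rxfp1 ranged over 7.27 to 8.02 there, Anxa6 over 8.39 to 9.08 and Drc12 over 6.18 to 6.77. Stress in Vin gave -0.26 ± 0.181 for Rxfp1, opposite in sign to CA1, and -0.20 ± 0.117 for Drc12 (adjusted p = 1 for both). Prcp in Con had the smallest unadjusted p of the area: its values were 7.76, 8.18 and 7.95 in NSt-Con and 7.67, 7.71 and 7.66 in St-Con, a difference of -0.28 ± 0.0992 (adjusted p = 0.996).

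In CRTX the stressed Con arrays came near the threshold for Sh3bp4 and Drc12. Sh3bp4 read 6.94, 6.95 and 6.70 in NSt-Con and 6.25, 6.59 and 6.38 in St-Con, which do not overlap, and the difference was -0.46 ± 0.0993 (adjusted p = 0.0535). Drc12 read 5.71, 5.60 and 5.46 in NSt-Con and 6.06, 6.00 and 5.86 in St-Con, again apart, with a difference of 0.38 ± 0.0807 (adjusted p = 0.0531). In this comparison 174 of 27342 probe sets passed (0.636%), and the arrays of these groups did not overlap for 24.3% of all probe sets. Scan day differs between these groups, and with scan day as a block the differences were -0.42 (adjusted p = 0.693) and 0.36 (adjusted p = 0.679). That block is estimated only from the NSt-Vin arrays, 1 on each day, so it cannot tell stress from scan day. Stress in Con went with a higher Drc12 in CRTX, where CA1 had -0.27, and neither value passed a test. In CRTX, Drc12 was dim, below the 30th percentile filter of the closing section. St-Vin read 5.52, 5.75 and 5.56 for Drc12, all below St-Con (9.16% of all probe sets were apart in this way), at -0.36 ± 0.0807 (adjusted p = 0.826). For Anxa6, St-Vin at 9.34, 9.38 and 9.26 lay below NSt-Vin at 9.62 and 9.53 (13.2% of all probe sets were apart), with -0.25 ± 0.123 (adjusted p = 0.998). Tgfb2 varied most within groups of CRTX, with 8.95, 8.25 and 7.97 in NSt-Con and 8.71, 8.30 and 7.90 in St-Vin.

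In CA3 only Sh3bp4 had St-Vin arrays apart from every other group. It read 8.18, 8.09 and 8.12 in NSt-Con, 8.37, 8.14 and 8.28 in NSt-Vin, 8.23, 8.12 and 8.06 in St-Con, and 8.01, 8.04 and 7.88 in St-Vin, so St-Vin was lowest here and highest in CA1. Of all probe sets, 18% were apart from NSt-Vin in CA3, 9.31% from St-Con and 1.99% from every other group. Its stress difference in Vin was -0.29 ± 0.0692 (adjusted p = 0.243), and that of the lineages with stress was -0.16 ± 0.0692 (adjusted p = 0.996). Anxa6 read 9.98, 9.95 and 9.63 in NSt-Vin and 9.80, 9.60 and 9.68 in St-Vin (-0.16 ± 0.113, adjusted p = 0.523), and Eif4e3 differed by 0.00 ± 0.0883 (adjusted p = 0.988). Drc12 spread widely within each CA3 group, as in 6.96, 6.37 and 7.30 for St-Vin, and its SE of 0.26 was the largest of the 8 genes in CA3.

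Averaged over the 4 groups, 41 of 48 member differences between 2 areas passed (limma with the pool as a random block, adjusted over all probe sets), where most probe sets passed as well: 79.6% for BLA and CRTX, 77% for BLA and CA1, 87.7% for BLA and CA3, 88.6% for CRTX and CA1, 95.1% for CRTX and CA3, and 80.2% for CA1 and CA3. A passing member is therefore near the background. The array medians were 6.76 to 6.805 in CRTX, 7.08 to 7.13 in BLA, 7.11 to 7.17 in CA1 and 7.34 to 7.39 in CA3, and the median of all probe sets differed by up to 0.497 (CRTX below CA3). Area goes in part with scan day and RNA preparation: BLA and part of CRTX share a scan day and a preparation, while CA1 and CA3 share a preparation and were scanned on different days.

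Rxfp1 was highest in CRTX (mean of the 4 group means 8.41), followed by CA1 (7.68), CA3 (7.60) and BLA (7.59), and the last 3 did not differ past the threshold, although BLA minus CA3 was 0.32 for Rxfp1 when all arrays were quantile normalized together. Sh3bp4 ran the other way, with 8.24 in CA1, 8.13 in CA3, 7.71 in BLA and 6.64 in CRTX. Its CA1 excess over CA3 of 0.12 rests on St-Vin: without CA1 St-Vin it was -0.05. Drc12 was likewise lowest in CRTX (5.70), then BLA (6.51), with CA3 (6.96) and CA1 (7.04) not differing past the threshold (adjusted p = 0.413).

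Tgfb2 was 8.92 in CA3, 8.67 in CA1, 8.24 in CRTX and 8.09 in BLA, and the lowest pair did not differ past the threshold (adjusted p = 0.17). The step from CA1 to CA3 turned to 0.02 for Tgfb2 (CA1 minus CA3) when all arrays were quantile normalized together. Prcp had the same order at the top, with 8.63 in CA3 and 8.31 in CA1, while CRTX (7.84) and BLA (7.80) did not differ past the threshold (adjusted p = 0.465). Eif4e3 was 8.69 in CA3, 8.41 in CA1, 8.18 in BLA and 7.68 in CRTX, each step passing. E2f5 was 7.55 in CA3, 7.04 in CA1, 6.66 in BLA and 6.57 in CRTX, also with each step passing, although the last step reversed to -0.26 (BLA minus CRTX) when all arrays were quantile normalized together. Anxa6 was 9.70 in CA3, 9.44 in CRTX, 9.41 in CA1 and 8.72 in BLA, and CRTX and CA1 did not differ past the threshold (adjusted p = 0.77). CRTX minus CA3 turned to 0.25 for Anxa6 when all arrays were quantile normalized together.

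**Figure D4:**
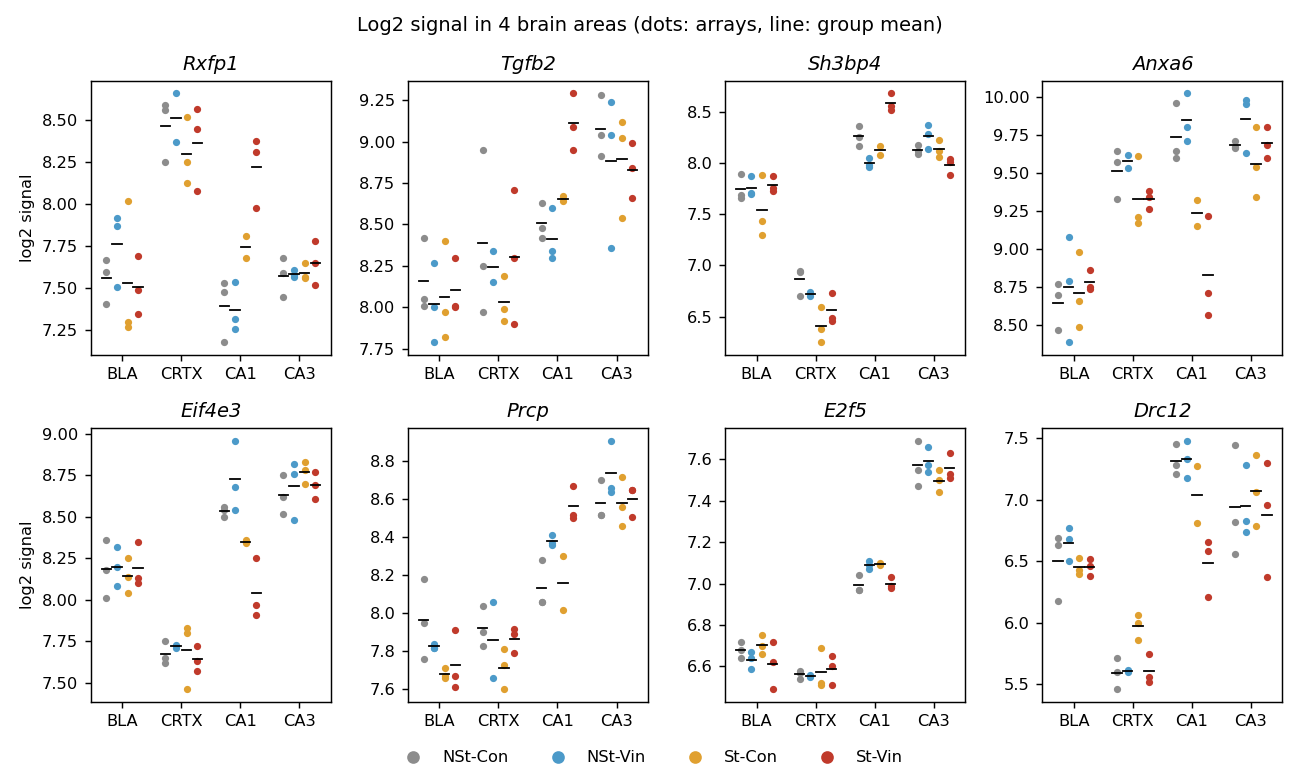
Log2 signal (vertical axis, a separate scale for each gene) in the 4 brain areas (horizontal axis); dots are arrays, colours the groups and lines the group means. The CA1 groups are spread apart for Rxfp1, Anxa6 and Drc12, while the groups of other areas largely overlap.

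The members were also set against the other genes of their pathways, in lists chosen with earlier results of these data known. In all, 129 other genes were measured, and 1 of them passed for stress in Vin in CA1 and 1 for stress in Con in CRTX, beside 0.505% and 0.636% of all probe sets. None passed in any other combination of area and comparison. Both belong to the angiotensin and kinin list of Prcp. Kng1, a kininogen, the precursor of bradykinin, read 7.61, 7.68 and 7.35 in CA1 of NSt-Vin and 6.93, 7.14 and 6.79 in St-Vin, without overlap. It fell by 0.59 ± 0.11 (adjusted p = 0.0495, or 0.0585 after quantile normalization), and with 1 array left out it stayed past the threshold only without NSt-Con replicate 3 (adjusted p 0.0327 to 0.168 over the 11 arrays). Agt, the angiotensinogen, read 7.99, 8.07 and 8.21 in CRTX of NSt-Con and 8.53, 8.54 and 8.45 in St-Con. It rose by 0.42 ± 0.072 (adjusted p = 0.0404), and with scan day as a block the difference was 0.49 with an adjusted p of 0.663. The scan-day block is estimated only from the NSt-Vin arrays of CRTX, 1 on each day, so it cannot tell stress from scan day. With 1 array left out, Agt stayed past the threshold only without each St-Vin array (adjusted p 0.0289 to 0.132 over the 11 arrays). Of the 22 other genes of that list, 15 were below 0 for stress in Vin in CA1 (median -0.065, against -0.02 over all probe sets).

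The relaxin list beside Rxfp1 had 6 other genes, 3 above and 3 below 0 for stress in Vin in CA1 (median -0.01). Rxfp3, a receptor of relaxin-3, had the smallest unadjusted p of them, with -0.25 ± 0.121 (adjusted p = 0.28). In the TGF-beta list 12 of 21 other genes were above 0 (median 0.03), and Smad2, which carries the receptor signal to the nucleus, differed by 0.32 ± 0.0772 (adjusted p = 0.0835). In the clathrin and adaptor list 15 of 28 were above 0 (median 0.02), with Hip1r at 0.23 ± 0.0732 (adjusted p = 0.141). The median of all probe sets was -0.02, and none of the genes of these 3 lists passed.

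Annexins other than Anxa6 were mixed, with 5 of 12 above and 7 below 0 (median -0.04); S100a11, an annexin-binding calcium sensor, differed by -0.63 ± 0.141 (adjusted p = 0.0732). Cap-binding and eIF4F genes were 9 above, 7 below and 1 at 0 (median 0.01), with Cyfip1, which represses translation through Eif4e, at -0.34 ± 0.0941 (adjusted p = 0.111). E2F, DP and pocket protein genes were 8 above, 4 below and 1 at 0 (median 0.01), with Lin54 at 0.31 ± 0.128 (adjusted p = 0.224). None of these genes passed.

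In the dynein regulatory complex, all 10 other genes were below 0 for stress in Vin in CA1, with a median of -0.29, and none passed. Efcab2, another part of the complex, read 6.25, 6.19 and 6.48 in NSt-Vin and 5.84, 5.75 and 5.81 in St-Vin, without overlap, a difference of -0.51 ± 0.104 (adjusted p = 0.0639). Efcab2 read 6.09 and 5.96 in St-Con, between these groups, as Drc12 did on average.

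Markers of ependyma, the ciliated lining, were measured beside Drc12. The mean of the 18 ependyma genes measured was 6.484 to 7.072 in CA1 of NSt-Con, 6.566 to 6.774 in NSt-Vin, 6.442 to 6.558 in St-Con and 6.237 to 6.347 in St-Vin, so St-Vin was lowest without overlap. For stress in Vin, 16 of the 18 were below 0 (median -0.34) and 0 passed, and Foxj1 was not analysed here; array signals have no true zero. Like Drc12, the ependyma mean was lowest in CRTX, with group means of 5.874 to 5.949 in CRTX, 6.319 to 6.417 in BLA, 6.299 to 6.73 in CA1 and 6.667 to 6.799 in CA3. CRTX also had the lowest array medians and was lowest in most other cell lists, though not in myelin. The lists lowest in CRTX included the cortical layer genes, with group means of 7.439 to 7.572 against 7.581 to 7.669 in BLA. That list therefore does not mark the CRTX punches. The shared low is therefore not particular to ependyma. The part of these cells in the CA1 difference of Drc12 was not tested.

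Markers of other cells also differed between the CA1 arrays that separate the members. The oligodendrocyte and myelin mean (18 genes) was 10.2, 10.28 and 9.795 in St-Vin replicates 1 to 3, against 9.567 to 9.943 in NSt-Vin; 17 of 18 genes were above 0 (median 0.46). The CA3 and CA2 pyramidal mean (16 genes) was 7.806, 7.922 and 8.228 in St-Vin and 8.195 to 8.48 in NSt-Vin, with 13 of 16 below 0 (median -0.27). The dentate granule mean (7 genes) was 7.823, 7.787 and 8.414 against 8.13 to 8.793, with 6 of 7 below 0 (median -0.28). In the myelin, CA3 and dentate means, the St-Con arrays lay within the St-Vin range. The dentate group means were 8.07 in NSt-Con, 8.399 in NSt-Vin, 8.047 in St-Con and 8.008 in St-Vin, so NSt-Vin had the highest mean. Its arrays, at 8.13 to 8.793, overlapped those of every other group. NSt-Vin also had the lowest myelin mean, at 9.701 against 9.881 in NSt-Con and 9.921 in St-Con. Cortical layer genes (8) were above 0 in 7 (median 0.38) and CA1 pyramidal genes (8) in 7 (median 0.17). St-Vin replicate 3 was thus nearest to NSt-Vin in the myelin, CA3 and dentate means, as it was for 6 of the 8 members. Grik4 read 7.59, 7.87 and 8.66 in St-Vin and 8.44, 8.72 and 9.45 in NSt-Vin, and Prox1, a dentate granule marker, read 6.99, 6.98 and 8.21 against 7.60, 8.07 and 9.03.

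Astrocyte genes were below 0 in 12 of 12 (median -0.21; means 10.39 to 10.49 in St-Vin and 10.57 to 10.73 in NSt-Vin), and 1 of them passed, Acsbg1, an acyl-CoA synthetase, at -0.31 ± 0.0551 (adjusted p = 0.046; with 1 array left out it stayed past the threshold only without NSt-Con replicate 3, with adjusted p up to 0.181). The astrocyte means of St-Con, at 10.43 to 10.47, lay within the St-Vin range. Choroid plexus genes were below 0 in 12 of 16 (median -0.09), and Ttr, its main product, read 9.43, 7.38 and 10.43 in St-Vin and 11.9, 12.26 and 12.21 in NSt-Vin. The choroid mean overlapped, at 6.478 to 7.334 in St-Vin and 7.203 to 7.221 in NSt-Vin. NSt-Con replicates 2 and 3 lay 0.721 and 2.2 above the area's choroid mean and are the choroid-rich arrays of CA1. Medians of the 8 remaining cell lists lay between -0.142 (inhibitory neurons) and 0.0417 (leptomeninges), and none of their genes passed. The part of any of these cells in the CA1 differences of the 8 genes was not tested.

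**Figure D5:**
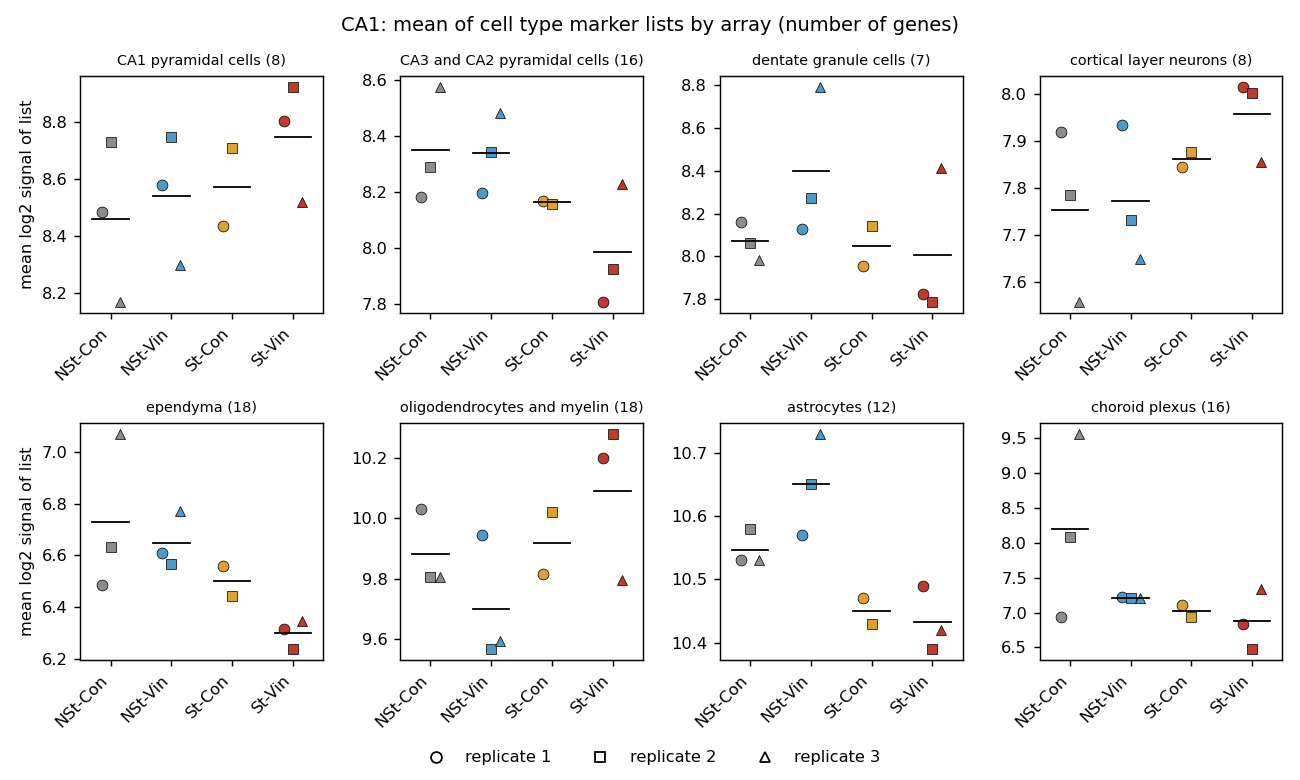
Mean log2 signal (vertical axis) of 8 lists of cell type markers, with the number of genes measured, in each CA1 array used, by group (horizontal axis); symbols give the replicate and the line the group mean. The ependyma mean of St-Vin, 6.237 to 6.347, lies below all other arrays, and St-Vin replicate 3 stands apart from the other two in the myelin, CA3 and dentate lists.

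After each area's mean was subtracted, the 46 arrays were compared gene by gene, as a description in which the CA1 arrays weigh heavily. Rxfp1 was most like Mapk8 (r = 0.803), Fxyd6 (0.799) and St6gal2 (0.795), and Tgfb2 most like Fdft1 (0.719), Msmo1 (0.705) and Timp2 (0.687). Fdft1 and Msmo1 are enzymes of cholesterol synthesis. Sh3bp4 was nearest to Psen2 (0.705), Tti2 (0.685) and Dusp13b (0.672), and Prcp to Tbc1d24 (0.76), Gpd2 (0.73) and Colgalt1 (0.703). Anxa6 was nearest to Atp5pb (0.84), Lpl (0.825) and Vamp1 (0.809), and Eif4e3 to Kctd4 (0.827), Tuba8 (0.812) and Smpd2 (0.806). The closest match of all was that of Drc12 with Lrrc34 (0.86), then C3h20orf96 (0.858) and Ak7 (0.844), and Ak7 is among the ependyma genes above. E2f5 had the weakest matches, Ppid (0.519), Cpne3 (0.498) and Srsf6 (0.489).

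Among the members themselves the likeness depended on CA1 for some pairs. Rxfp1 and Anxa6 had r = -0.651 over all 46 arrays and -0.09 over the 35 arrays outside CA1, and Anxa6 and Eif4e3 went from 0.617 to -0.06. Rxfp1, Tgfb2 and Sh3bp4 kept positive values without CA1, at 0.415 for Rxfp1 with Tgfb2, 0.498 for Rxfp1 with Sh3bp4 and 0.44 for Tgfb2 with Sh3bp4. Tgfb2 with Prcp went from 0.476 to 0.436 and Sh3bp4 with Prcp from 0.406 to 0.341.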

How the data were processed

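The deposited values are log2 signals, made by the authors with Partek and RMA per the submitters' processing notes (their versions are not given in the sources used). RMA corrects background, normalizes arrays and summarises probe sets. An array has no read depth, and precision is limited by the number of arrays.

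Probe sets take symbols from the platform annotation (15097 with 1 symbol, 323 with several, 11922 with none, unnamed here). Per area, group means were fitted in R 4.3.3 with lmFit and eBayes of limma 3.58.1 (all groups sharing one spread), with 5 two-sided comparisons: lineage without and with stress, stress in Con and in Vin, and the interaction. Adjusted p-values are Benjamini-Hochberg over 27342 probe sets, threshold 0.05. Areas were compared in one fit with the pool as a random block (statmod 1.5.0, correlation 0.0487). Pools hold different rats, and the spread tested is that between pools.

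The members and the 8 pathway and 16 cell lists were chosen with earlier results of these data known. Named genes are the members, the 3 genes most correlated with each, list genes past the threshold (up to 4 a list, by size), else the one with the smallest unadjusted p in CA1, and single marker genes; Prox1, Acsbg1 and Drd2 were looked up after their lists. Drd2, a striatal marker, read 5.61 to 6.11 in CA1 and 5.90 to 9.17 in BLA. Rspo2, an amygdala marker, read 8.11 to 9.04 in BLA and 8.69 to 9.93 in CA1, so this single gene does not set the BLA punches apart. The mean of the 10 amygdala genes measured was highest in BLA, with group means of 8.245 to 8.418. It was 7.794 to 7.855 in CA1, 8.023 to 8.125 in CA3 and 7.421 to 7.468 in CRTX.

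Cage mates pair the Vin and Con pools per the labels; their deviations from group means correlated above 0.1 in 6 of 6 pairs in BLA, 3 of 5 in CRTX, 5 of 5 in CA1 and 5 of 6 in CA3. Tested on simulated data for stress in Vin in CA1, the fit recovered 59% of log2 changes of 0.5 and 96% of those of 1 (100 each, among 27342 probe sets), with 6 false calls. The simulated noise was independent between arrays and probe sets, without the likeness of cage mates or a scan-day difference. These rates may therefore not hold for the real arrays. Figures used matplotlib 3.10.9. Alternatives are given in the closing section.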

Additional observations from a re-analysis of the deposited data

Results flagged for a closer look

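Lineage differences of opposite sign in every cage-mate pair of 2 conditions were looked for in 32 gene and area combinations between stress conditions, with 5 found, and in 96 between areas, with 4 found. None of these differences between conditions was tested, and those in CA1 use the values that chose the genes. The share of all probe sets that meet this rule was not counted, so nothing is read from the counts.

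Within CA1, the mean lineage difference (Vin minus Con) of Sh3bp4 was -0.26 in the 3 pairs without stress and 0.495 in the 2 stressed pairs, 0.758 apart. Anxa6 had 0.11 and -0.595, -0.705 apart, Eif4e3 had 0.193 and -0.41, -0.603 apart, and E2f5 had 0.10 and -0.11, -0.207 apart. Within CA3, Sh3bp4 went the other way, from 0.133 in 3 pairs without stress to -0.16 in 3 stressed pairs, which is -0.293.

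Between areas, the lineage difference of Sh3bp4 in CA1 minus that in CA3 was -0.397 without stress and 0.655 with stress. For E2f5 without stress, BLA minus CA1 was -0.143 and CRTX minus CA1 was -0.117.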

How the results depend on the processing

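In CA1, the number of members past the threshold for stress in Vin was 6, and 3 with quantile normalization, 3 with dim probe sets left out (below the 30th percentile), and 0 to 6 with one array left out. It stayed 6 without NSt-Con replicate 3 or St-Vin replicate 3 and was 0 without any of the other 9 arrays, 1 at a time, in any group, where adjusted p rose to at most 0.167 for these 6. Under the 17 alternatives run, every member kept its sign (Rxfp1 0.772 to 0.972, Anxa6 -1.2 to -0.878). Leaving out 1 array could not have turned a sign, because the members' St-Vin and NSt-Vin arrays do not overlap. With the replicate block of cage mates, 5 members passed for lineage with stress and 4 for the interaction, against 0 without it; this rests on 2 stressed pairs whose lineages were scanned on different days. In CRTX, members past the threshold for stress in Con were 0, and 2 with all 48 arrays, 1 with quantile normalization, 2 with eBayes trend and robust settings, and 0 to 1 with one array left out (1 without St-Vin replicate 2). The block changed no other member count. Between areas, quantile normalization of all arrays turned E2f5 BLA minus CRTX to -0.256, Rxfp1 BLA minus CA3 to 0.319, Anxa6 CRTX minus CA3 to 0.247 and Tgfb2 CA1 minus CA3 to 0.0162, and leaving out CA1 St-Vin turned Sh3bp4 CA1 minus CA3 to -0.0475. The causes were not tested. Over all probe sets, stress in Vin in CA1 gave 138 calls, 752 with all 48 arrays, 44 with quantile normalization, 16 without dim probe sets, 305 without choroid-rich arrays and 0 to 604 with one array left out. Stress in Con in CRTX gave 174, and 1027, 390, 50 and 19 under the same settings, 385 with trend and robust settings and 0 with scan day as a block. The scan-day block in CRTX is estimated only from the NSt-Vin arrays, 1 on each day. The replicate block gave 347 calls for lineage with stress and 135 for the interaction in CA1. The second E2f5 probe set within areas was added after the data were seen. Of the 120 member differences outside CA1, 70 changed sign under at least 1 alternative, none of them over 0.227 in size. Drc12 was below the filter on dim probe sets in CRTX.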
